A study of Mus musculus with 16 samples.

Results

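The genes of transforming growth factor beta (TGF-beta) signaling described here are 8 of the 13733 genes in the expression table: the ligand genes Tgfb1, Tgfb2 and Tgfb3, the receptor genes Tgfbr1 and Tgfbr2, the matrix gene Ltbp2, the TGF-beta-induced gene Tgfbi and the activin subunit gene Inhba. They were chosen by name, and all 8 were found and passed the filter on low values. Expression was measured by bulk RNA-seq of cells from mouse knee joints, with 4 libraries for each pairing of genotype (WT or Trem2-/-) and time (D0 or D7). WT mice, labelled C57BL/6, were C57BL/6J by the study's methods. Trem2-/- mice, labelled Trem2 KO, carry an inactivating germline allele of Trem2, the gene of a surface receptor of myeloid cells, on the same strain, so the loss is not limited to 1 cell type. Joints were uninjured (D0) or taken 7 days (D7) after anterior cruciate ligament rupture by tibial compression, and the study's methods give male mice injured at 10 weeks of age. The label field for age gives 16 weeks, and a protocol field describes homogenized joints of control and diabetic mice, so that age and preparation are not settled by the labels. The methods describe cells released by enzymes and separated by CD45, a leukocyte surface protein, for single-cell work, and do not say whether the cells of these libraries were CD45 enriched.

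TGF-beta is secreted in a latent form bound to its own propeptide. It is held in the extracellular matrix by some, not all, latent TGF-beta binding proteins. Once released, for example by integrins, it binds the type II receptor Tgfbr2, which recruits and activates the type I receptor Tgfbr1, and the receptors phosphorylate Smad2 and Smad3, which enter the nucleus with Smad4. Activin A, a dimer of the Inhba product, reaches the same SMAD proteins through its own receptors and is held back by follistatin. In joints the pathway is known for maintaining cartilage and for matrix production by fibroblasts after injury.

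Levels are given as CPM, read counts scaled to library size and then adjusted by the authors with the TMM method, a correction for library composition. Reads per library ranged from 11567073 to 32867818, and 3 reads corresponded to 0.101 to 0.250 CPM, far below the level of each of the 8 genes. Trem2 was 2.51 to 5.61 CPM at WT D0, 10.7 to 22.5 at WT D7, 0.948 to 2.68 at Trem2-/- D0 and 3.42 to 4.84 at Trem2-/- D7, so at D7 every knockout library lay below every WT library, while at D0 the genotypes overlapped. Markers of leukocytes and of connective tissue cells were both present in every library, and none of the markers found was at 0 in any library.

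Libraries 1 and 4 of WT D0 stood apart from other uninjured libraries in fibroblast markers, and in leukocyte markers only from other WT ones. The summed level of 6 fibroblast markers (Pdgfra, Col1a1, Dcn, Lum, Pdpn and Thy1) was 10895 and 23752 CPM in them, against 3112 and 6125 CPM in WT D0 mice 2 and 3. It was 3302 to 5674 CPM at Trem2-/- D0. Col1a1 and Dcn, also on the pathway lists below, made up most of this sum, with means of 7543 and 2667 CPM at WT D0. The summed level of 6 leukocyte markers was 2678, 4853, 5222 and 3243 CPM in WT D0 mice 1 to 4. It ranged from 3322 to 5729 CPM at Trem2-/- D0, where mouse 4, at 3322 CPM, lay close to WT D0 mouse 4. Chondrocyte markers did not split this way, at 2073, 300, 5752 and 9457 CPM in WT D0 mice 1 to 4, and tendon markers put mouse 3 (2731 CPM) near mouse 1 (3240 CPM). In bulk samples, fewer cells of a type and less RNA per cell cannot be told apart. Differences of the 8 genes and of named pathway genes that rest on WT D0 were therefore also computed without mice 1 and 4, a choice made after the data were seen. These mice were also the highest of WT D0 for Tgfb2, Tgfb3, Tgfbr1, Tgfbr2, Ltbp2 and Inhba. For those genes, leaving them out must raise the WT injury and D0 genotype differences and lower the interactions. It shows how far the values depend on these mice and is no independent check.

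RefSeq promoters were available here for 7 of the 8 genes, 8 promoters in all because Tgfbr1 has 2. The 250 bases before the start of Tgfb1, Tgfb2 and Inhba are shown because the level of Tgfb1 hardly moved in any comparison, while Tgfb2 and Inhba showed the largest injury differences of the ligand genes. Positions are on GRCm38.p6: chr7:25686752-25687001 on the plus strand for Tgfb1, chr1:186705990-186706239 on the minus strand for Tgfb2 and chr13:16011601-16011850 on the plus strand for Inhba. Each is written 5′ to 3′ toward the gene, and capitals mark matches on either strand to a SMAD box (CAGAC), to an AP-1 site (written TGANTCA) or to a TATA box, whose letters are TATAAA, which do not overlap each other in them.
Tgfb1: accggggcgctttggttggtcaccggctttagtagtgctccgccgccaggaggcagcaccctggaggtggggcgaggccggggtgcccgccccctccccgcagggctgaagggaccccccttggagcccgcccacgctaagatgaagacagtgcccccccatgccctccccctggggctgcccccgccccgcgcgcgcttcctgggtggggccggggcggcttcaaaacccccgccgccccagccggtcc
Tgfb2: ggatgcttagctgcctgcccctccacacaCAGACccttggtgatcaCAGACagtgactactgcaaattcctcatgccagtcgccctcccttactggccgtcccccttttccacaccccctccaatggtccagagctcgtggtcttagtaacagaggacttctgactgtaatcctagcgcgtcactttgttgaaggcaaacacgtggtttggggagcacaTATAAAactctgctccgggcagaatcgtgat
Inhba: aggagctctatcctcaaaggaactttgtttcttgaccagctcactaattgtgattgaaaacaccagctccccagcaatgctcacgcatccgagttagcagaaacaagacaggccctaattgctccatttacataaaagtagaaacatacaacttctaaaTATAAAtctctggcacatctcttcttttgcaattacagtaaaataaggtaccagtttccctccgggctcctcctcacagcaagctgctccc
The Tgfb1 promoter held none of these letters. It held 5 matches to the GC box GGGCGG on either strand and was 75.2% G and C, against a median of 52.4% over all promoters. The Tgfb2 promoter held 2 SMAD boxes and a TATA box at position -31 from the start, with 53.6% G and C. The Inhba promoter held a TATA box at position -91, no SMAD box and no GC box, with 43.2% G and C. Over 32851 mouse promoters of the same length, 42.2% held a SMAD box, 6.75% an AP-1 site, 12.4% a TATA box and 32.7% a GC box, so a SMAD box is common. Of the others, the promoters of Ltbp2 and Tgfbi held 2 SMAD boxes each and that of Tgfbr2 and 1 of the 2 Tgfbr1 promoters held 1 each. These are matches of letters in a window, not binding sites.

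After injury 7 of the 8 genes had higher means at D7 than at D0 in both genotypes under every alternative tried, and Tgfb1 stayed nearly level. With limma over 13173 genes tested, 3 of the 8 rose in WT mice (adjusted p under 0.05): Inhba, Tgfbi and Tgfbr2. In Trem2-/- mice 7 of the 8 rose, all but Tgfb1. For all genes tested, 28.5% were called in WT mice, with 15.9% higher, and 53.2% were called in Trem2-/- mice, with 26.0% higher. The 8 genes had a median log2 fold change of 0.74 (WT) and 1.30 (Trem2-/-), where all genes together stood at -0.04 in both. Without WT D0 mice 1 and 4, a choice that favors higher WT differences, 44.2% of all genes were called in WT mice. The count in WT mice was then 7 of 8, again all but Tgfb1, with a median of 1.33. It was 5 without mouse 1 alone (36.4% of all genes) and 6 without mouse 4 alone (31.8%). Under the looser rule of the study, which asks for p under 0.05 without adjustment and a change of over 0.32 on the log2 scale, 4 of the 8 were called in WT mice and 7 in Trem2-/- mice, against 37.4% and 54.5% of all genes. On plain CPM, without TMM, the split of all calls shifted from 2088 higher and 1664 lower to 1240 higher and 5068 lower in WT mice, and from 3428 and 3581 to 2216 and 5865 in Trem2-/- mice. The 8 genes then had 2 calls in WT mice (Tgfbi and Inhba) and 6 in Trem2-/- mice, all higher. The injured mice all lay above the uninjured ones for 3 of the 8 genes in WT (12.9% of all genes) and for 7 in Trem2-/- mice (26.1%).

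**Figure D1:**
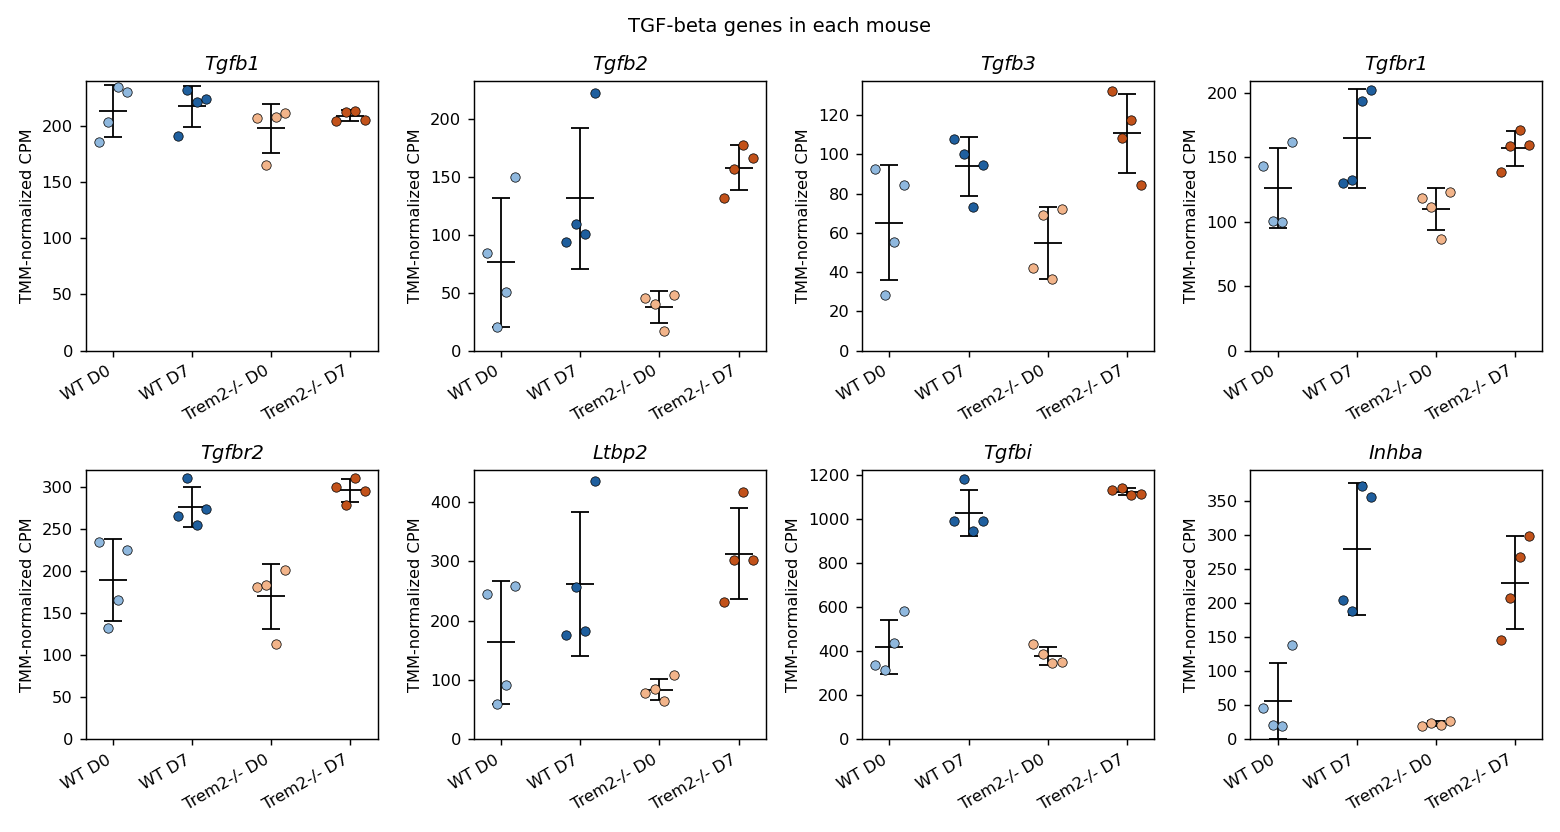
Each panel plots 1 gene in TMM-normalized CPM on a linear axis from 0, with 1 point per mouse in the order 1 to 4 and bars for the mean and SD of each group of 4. Tgfb1 lies between 165 and 234 CPM in all mice, while at Trem2-/- D7 the other 7 genes lie above every Trem2-/- D0 mouse.

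Tgfb1 encodes the most widely expressed ligand (GRCm38 with GENCODE M21 here and for the other genes, chromosome 7, 25687002 to 25705077, plus strand, ENSMUSG00000002603.15). Its level was 186, 203, 234 and 229.7 CPM at WT D0 and 191, 232, 221 and 224 CPM at WT D7. The Trem2-/- values were 206, 165, 207 and 211 CPM at D0 and 204, 212, 213 and 205 CPM at D7. The groups overlapped in every comparison, and Trem2-/- D0 mouse 2 was the lowest of all 16. The injury log2 fold change was 0.03 in WT mice (95% interval -0.20 to 0.25, adjusted p = 0.861 with limma) and 0.08 in Trem2-/- mice (-0.14 to 0.31, adjusted p = 0.518 with limma). Both intervals lie within 0.32 of 0. On plain CPM, which moves the median over all genes to -0.30 (WT) and -0.31 (Trem2-/-), the Tgfb1 differences were -0.25 and -0.21.

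Tgfb2, the second ligand, lies on chromosome 1 (186622792 to 186705989, minus strand, ENSMUSG00000039239.14). Its level was 84.5, 20.6, 50.3 and 149.6 CPM at WT D0 and 93.5, 109, 101 and 222 CPM at WT D7. The highest uninjured mouse, mouse 4, lay above 3 of the 4 injured WT mice. Knockout values were 45.1, 40.6, 17.2 and 47.6 CPM at D0 and 131, 157, 177 and 166 CPM at D7, with no overlap. The log2 fold change was 1.01 ± 0.47 (SE) in WT mice (adjusted p = 0.112 with limma), which did not pass, and 2.13 ± 0.47 (SE) in Trem2-/- mice (adjusted p = 0.00154 with limma), a fold of 4.37. Without WT D0 mice 1 and 4 the WT difference was 1.90 and passed (adjusted p = 0.00295 with limma), while it was 0.51 without mouse 2.

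Tgfb3, the third ligand, lies on chromosome 12 (86056745 to 86079041, minus strand, ENSMUSG00000021253.7). It ranged from 28.6 to 92.7 CPM at WT D0 and from 73.1 to 108 CPM at WT D7, and these ranges overlapped. In Trem2-/- mice it ranged from 36.3 to 72.1 CPM at D0 and from 84.6 to 132 CPM at D7 without overlap. The log2 fold change was 0.64 ± 0.31 (SE) in WT mice (adjusted p = 0.128 with limma) and 1.04 ± 0.31 (SE) in Trem2-/- mice, where it passed (adjusted p = 0.0108 with limma). Its WT difference was 1.20 without WT D0 mice 1 and 4 (adjusted p = 0.00578 with limma) and 0.29 without mouse 2. On the opposite strand, Gm37804 and Gm48008 overlap 12.4% of its exon bases, and whether reads were counted by strand is not given in the sources used here.

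Among the ligand transcripts the mean share of Tgfb1 was lower after injury in both genotypes. Per kilobase of exon, Tgfb1 made up 63.7% ± 9.13 (SD, n = 4) of the summed ligand level at Trem2-/- D0 and 40.9% ± 1.82 (SD, n = 4) at Trem2-/- D7. Every injured Trem2-/- mouse (39.3% to 43.1%) lay below every uninjured one (54.4% to 75.0%). In WT mice the share was 59.0% ± 14.7 (SD, n = 4) at D0 and 46.5% ± 5.57 (SD, n = 4) at D7, with overlap. The share of Tgfb2 was 10.3% ± 3.31 (SD, n = 4) at Trem2-/- D0 and 26.9% ± 3.48 (SD, n = 4) at Trem2-/- D7. In WT mice the Tgfb2 share was 16.1% ± 8.63 (SD, n = 4) at D0 and 23.6% ± 7.43 (SD, n = 4) at D7, with overlap. WT D0 mice 1 and 4, at 46.7% and 47.3% Tgfb1, were nearer to injured mice than mice 2 and 3 were, at 77.1% and 64.9%. The annotated exons of Tgfb1 cover 5042 bases but its longest transcript only 2573, and with transcript length the Tgfb1 share at Trem2-/- D7 was 56.1%. These shares are a description and were not tested.

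**Figure D2:**
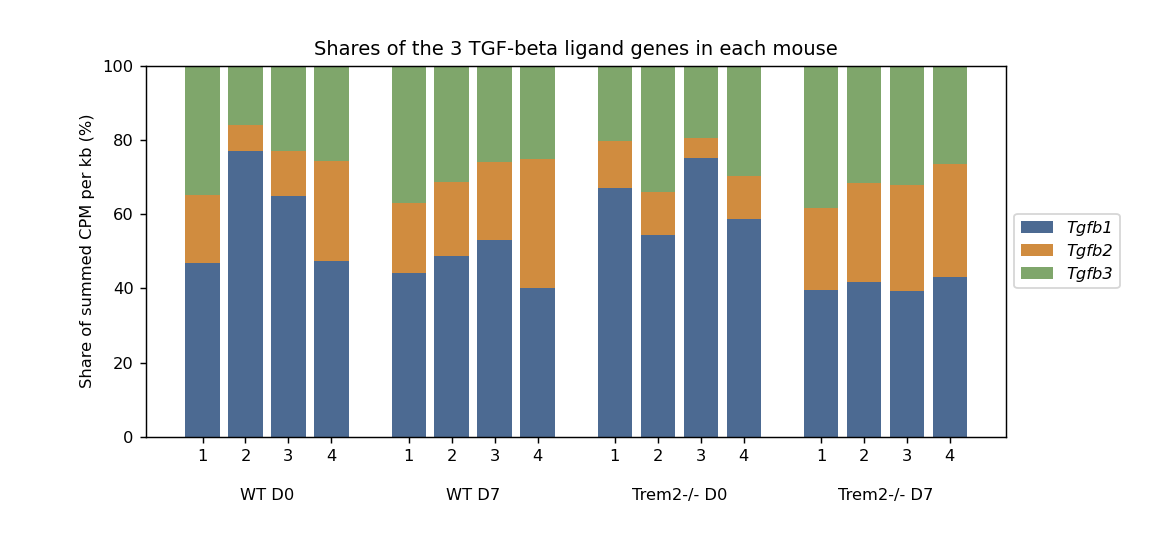
Stacked bars give, for each of the 16 mice, the share in percent of the summed CPM per kilobase of exon that comes from Tgfb1, Tgfb2 and Tgfb3. The Tgfb1 share runs from 39.3% to 43.1% at Trem2-/- D7 and from 54.4% to 75.0% at Trem2-/- D0.

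Of the receptors, Tgfbr2 binds the ligand first (chromosome 9, 116084293 to 116175360, minus strand, ENSMUSG00000032440.13). It was 234, 132, 166 and 225 CPM at WT D0 and 266, 310.4, 255 and 274 CPM at WT D7, with no overlap. Knockout mice had 182, 184, 113 and 201 CPM at D0 and 300.01, 279, 311 and 296 CPM at D7, again with every injured mouse above every uninjured mouse. It rose by 0.58 ± 0.19 (SE) on the log2 scale in WT mice (adjusted p = 0.0317 with limma) and by 0.83 ± 0.19 (SE) in Trem2-/- mice (adjusted p = 0.00173 with limma). The WT call was lost on plain CPM (adjusted p = 0.155), with only the WT groups in the fit (0.0719), and without any of WT D0 mice 2 and 3 and WT D7 mice 1, 2 and 4, with adjusted p from 0.0577 to 0.105. The log2 fold change was 0.29 on plain CPM, 0.42 without WT D0 mouse 2 and between 0.52 and 0.59 in the others, and without WT D0 mice 1 and 4 it was 0.89.

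Tgfbr1 encodes the kinase that passes the signal on (chromosome 4, 47353222 to 47414931, plus strand, ENSMUSG00000007613.15). It ranged from 100.1 to 161 CPM at WT D0 and from 129.7 to 202 CPM at WT D7 with overlap, and from 86.7 to 123 CPM at Trem2-/- D0 and from 139 to 171 CPM at Trem2-/- D7 without. The log2 fold change was 0.38 ± 0.18 (SE) in WT mice (adjusted p = 0.124 with limma) and 0.52 ± 0.18 (SE) in Trem2-/- mice, where it passed (adjusted p = 0.0272 with limma). The WT difference was 0.68 without WT D0 mice 1 and 4 (adjusted p = 0.0108 with limma). The Trem2-/- call was lost on plain CPM (adjusted p = 0.227) and without any of Trem2-/- D0 mouse 3 and Trem2-/- D7 mice 2, 3 and 4, with adjusted p from 0.0537 to 0.0905. The log2 fold change was 0.23 on plain CPM, 0.41 without D0 mouse 3 and between 0.48 and 0.51 without the D7 mice. The log2 ratio of Tgfbr1 to Tgfbr2, per kilobase, was -0.28 ± 0.15 (SD, n = 4) at Trem2-/- D0 and -0.59 ± 0.13 (SD, n = 4) at Trem2-/- D7. In WT mice it was -0.25 ± 0.17 (SD, n = 4) at D0 and -0.45 ± 0.42 (SD, n = 4) at D7, with overlap.

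Ltbp2 belongs to the latent TGF-beta binding protein family and is found on matrix microfibrils (chromosome 12, 84783212 to 84876532, minus strand, ENSMUSG00000002020.15). It was 245, 58.9, 91.4 and 259 CPM at WT D0 and 176, 256, 183 and 436 CPM at WT D7. Uninjured mice 1 and 4 lay within the injured range, and mice 2 and 3 below it. Levels in Trem2-/- mice were 78.2, 84.1, 64.8 and 108 CPM at D0 and 232, 302, 416 and 302 CPM at D7, without overlap. The log2 fold change was 0.84 ± 0.41 (SE) in WT mice (adjusted p = 0.128 with limma) and 1.88 ± 0.41 (SE) in Trem2-/- mice, where it passed (adjusted p = 0.00141 with limma). The WT difference was 1.72 and passed without WT D0 mice 1 and 4 (adjusted p = 0.00116 with limma), while it was 0.44 without mouse 2. On the opposite strand, D030025P21Rik overlaps 9.34% of its exon bases.

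Tgfbi, a matrix protein gene named for its induction by TGF-beta, had the highest level of the 8 (chromosome 13, 56609523 to 56639562, plus strand, ENSMUSG00000035493.10). It was 337, 315, 438 and 581 CPM at WT D0 and 989, 1178, 946 and 989 CPM at WT D7. In Trem2-/- mice it was 432, 389, 345 and 350.2 CPM at D0 and 1130.05, 1139, 1108 and 1113 CPM at D7. No injured mouse overlapped an uninjured one in either genotype. It rose 2.52-fold in WT mice (log2 fold change 1.33 ± 0.17 (SE), adjusted p = 0.000395 with limma) and 2.97-fold in Trem2-/- mice (1.57 ± 0.17 (SE), adjusted p = 1.37e-05 with limma). Both calls held under all 29 alternatives, with a WT log2 fold change of at least 1.05, and of 1.46 without WT D0 mice 1 and 4.

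Inhba, which encodes the subunit of activin A, showed the largest change of the 8 (chromosome 13, 16011851 to 16031621, plus strand, ENSMUSG00000041324.14). It was 46.2, 20.8, 20.1 and 139 CPM at WT D0 and 205, 189, 373 and 356 CPM at WT D7. In Trem2-/- mice it was 20.2, 23.8, 20.5 and 27.7 CPM at D0 and 146, 208, 268 and 299.9 CPM at D7. Uninjured WT mouse 4 was the highest of the uninjured mice and still lay below every injured one. It rose 6.43-fold in WT mice (log2 fold change 2.68 ± 0.46 (SE), adjusted p = 0.00144 with limma) and 9.37-fold in Trem2-/- mice (3.23 ± 0.46 (SE), adjusted p = 6.59e-05 with limma). Both calls held under all 29 alternatives. The WT log2 fold change was 3.27 without WT D0 mouse 4 and 3.645 without mice 1 and 4, above the 3.23 of Trem2-/- mice. Fst, the gene of the activin antagonist follistatin, averaged 21.2 ± 10.4 (SD, n = 4) CPM at WT D0 and 17.0 ± 5.81 (SD, n = 4) CPM at WT D7 and was not called in either genotype. Per kilobase, the log2 ratio of Inhba to Fst was 0.58 ± 1.04 (SD, n = 4) at WT D0 and 3.56 ± 0.63 (SD, n = 4) at WT D7. The same ratio was -0.41 ± 0.49 (SD, n = 4) at Trem2-/- D0 and 3.17 ± 0.52 (SD, n = 4) at Trem2-/- D7.

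**Figure D3:**
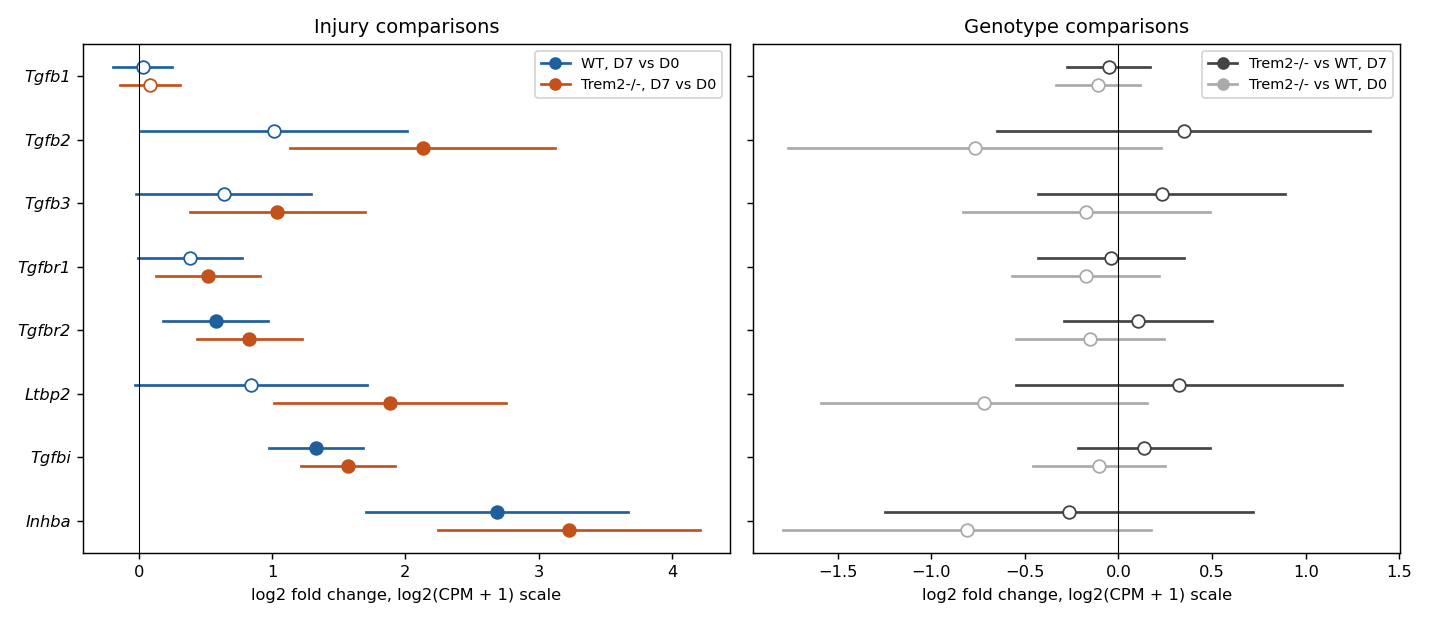
Points give the log2 fold change of each gene with its 95% interval from limma, for the injury comparisons on the left and the genotype comparisons on the right, and filled points have an adjusted p under 0.05. Inhba lies farthest right in both injury comparisons, at 2.68 and 3.23, and every genotype interval includes 0.

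Per kilobase of exon, Tgfbi was the most abundant of the 8 in all groups, at 111 CPM per kb at WT D0 and 298 at Trem2-/- D7, followed by Tgfb1 at WT D0 (42.3) and both Trem2-/- groups. At WT D0, Tgfbi, Tgfb1 and Tgfbr2 (23.1) did not overlap each other in order, while the ranges of Tgfbr2, Ltbp2, Tgfbr1, Tgfb3 and Tgfb2 did. Inhba was the lowest at WT D0 (8.86) and Trem2-/- D0 (3.61), where its range overlapped that of Tgfb2. At D7 its mean was 43.9 in WT and 36.1 in Trem2-/- mice, within the range of Ltbp2 in each.

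The genotypes were compared at each time to ask whether loss of Trem2 altered these genes. At D7 0 of the 8 genes passed with limma, edgeR, or voom with limma, and 0 had an unadjusted p under 0.05 or met the study's rule (5.72% of all genes did). Over all genes tested 0% passed in this comparison, 958 genes had an unadjusted p under 0.05, edgeR called 0 and voom with limma called 1. The smallest unadjusted p of the 8 was 0.427, for Tgfbi. Log2 fold changes of Trem2-/- over WT at D7 ran from -0.27 for Inhba (95% interval -1.25 to 0.72) to 0.35 for Tgfb2 (-0.65 to 1.35). Tgfb1 was narrowest at -0.05 (-0.28 to 0.17), then Tgfbi at 0.14 (-0.22 to 0.49), Tgfbr1 at -0.04 (-0.43 to 0.35) and Tgfbr2 at 0.10 (-0.29 to 0.50). The intervals of Tgfb3, Ltbp2, Tgfb2 and Inhba include 1.5-fold differences in at least one direction. The groups overlapped for all 8, where 8.33% of all genes did not overlap.

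At D0 all 8 means were lower in Trem2-/- than in WT mice, but 0 passed with limma, edgeR, or voom with limma, and the groups overlapped for all 8 (0.979% of all genes did not). None of the 8 had an unadjusted p under 0.05 with limma, while 3 (Ltbp2, Inhba and Tgfb2) met the study's rule with edgeR (3.54% of all genes) and 0 with limma (2.15%). Over all genes 0% passed with limma, 0 with edgeR and 0 with voom, and 385 had an unadjusted p under 0.05. The differences ran from -0.10 for Tgfbi (95% interval -0.46 to 0.25) to -0.81 for Inhba (-1.79 to 0.18). Those of Tgfb2 and Ltbp2 were -0.77 (-1.76 to 0.23) and -0.72 (-1.59 to 0.15). Without WT D0 mice 1 and 4, 7 of the 8 differences turned positive, from 0.02 for Tgfbi to 0.39 for Tgfb3.

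The larger injury differences in Trem2-/- mice were compared with those of WT mice by an interaction term. All 8 interaction estimates were above 0, from 0.06 for Tgfb1 to 1.12 for Tgfb2, and 0 passed with limma, edgeR, or voom with limma (adjusted p from 0.655 to 0.932 with limma). None of the 8 had an unadjusted p under 0.05 or met the study's rule, which 7.79% of all genes met. Over all genes 0% passed with limma, 0 with edgeR and 0 with voom, and 1075 had an unadjusted p under 0.05. For Ltbp2 the estimate was 1.04 (95% interval -0.19 to 2.27) and for Inhba 0.54 (-0.85 to 1.93). Without WT D0 mice 1 and 4 the estimates of Tgfb3, Tgfbr1, Tgfbr2 and Inhba were below 0, at -0.16, -0.16, -0.06 and -0.42. The higher count of calls in Trem2-/- mice therefore does not show a larger response.

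Markers of cell types moved with the injury. Of the 6 fibroblast markers, 4 rose in WT and 5 in Trem2-/- mice, and their summed level was 3112 to 23752 CPM at WT D0, 33941 to 57234 at WT D7, 3302 to 5674 at Trem2-/- D0 and 40997 to 65197 at Trem2-/- D7. All 6 chondrocyte markers rose in both genotypes. Of the leukocyte markers 5 of 6 fell in WT and 6 of 6 in Trem2-/- mice, with summed levels of 2678 to 5222, 1514 to 3335, 3322 to 5729 and 1197 to 1501 CPM in the same order of groups. Macrophage markers rose, 5 of 6 in WT and 4 of 6 in Trem2-/- mice, where 1 fell. Neutrophil markers fell in both genotypes, 6 of 6, and 0 of 6 endothelial markers were called with limma in either. At D7 the 6 leukocyte markers had a median of -0.64 between genotypes, and 5 of them met the study's rule without passing adjustment. The 6 macrophage markers had a median of -0.45, with 3 lower by that rule, and the 6 B cell markers -0.88, with 5 lower. Tendon markers had a median of 0.77, with 3 higher by that rule, and fibroblast markers 0.24, with 0. By that rule 5.72% of all genes were called.

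Pearson's r was taken between the log2 level of each gene and the log2 of the summed CPM of each marker list. It was computed across the 16 libraries, which share the group structure and TMM scaling. For the 7 genes other than Tgfb1 and the fibroblast markers, r was between 0.811 (Tgfbr1) and 0.955 (Tgfbi). With the same 7 genes r was 0.728 to 0.908 for chondrocyte markers and 0.816 to 0.907 for osteoblast markers. These ranges were 0.319 to 0.637 and 0.434 to 0.705 after subtraction of the group means. At D7 the fibroblast sum was mostly Col1a1 (mean 39174 CPM in WT mice), which is also on the list of target genes. After subtraction of the group means the fibroblast r was 0.893 for Tgfb2, 0.836 for Ltbp2 and 0.723 for Inhba. It was then 0.743 for Tgfb3 and Tgfbr2, 0.712 for Tgfbi and 0.648 for Tgfbr1. For Tgfb1 the fibroblast r was 0.306 before and 0.154 after subtraction. These are descriptions without a test, and the part of a change in cell makeup in the higher levels at D7 was not tested. Tgfbi also had an r of 0.802 with the macrophage markers, against 0.702 for Inhba and at most 0.558 for the others. After subtraction of the group means the macrophage r was 0.484 for Tgfbi and -0.251 for Inhba. Tendon and ligament markers, of which 1 of 6 rose in WT and 6 of 6 in Trem2-/- mice, had r of 0.951 with Tgfb2 and with Ltbp2. Osteoclast markers, of which 3 of 5 rose in WT mice and 4 rose and 1 fell in Trem2-/- mice, had r of 0.936 and 0.937 with the same genes and 0.932 with Tgfbr2. After subtraction of the group means the osteoclast r was 0.881 for Tgfb2, 0.886 for Ltbp2 and 0.828 for Tgfbr2. The tendon r was then 0.866 for Tgfb2 and 0.862 for Ltbp2.

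**Figure D4:**
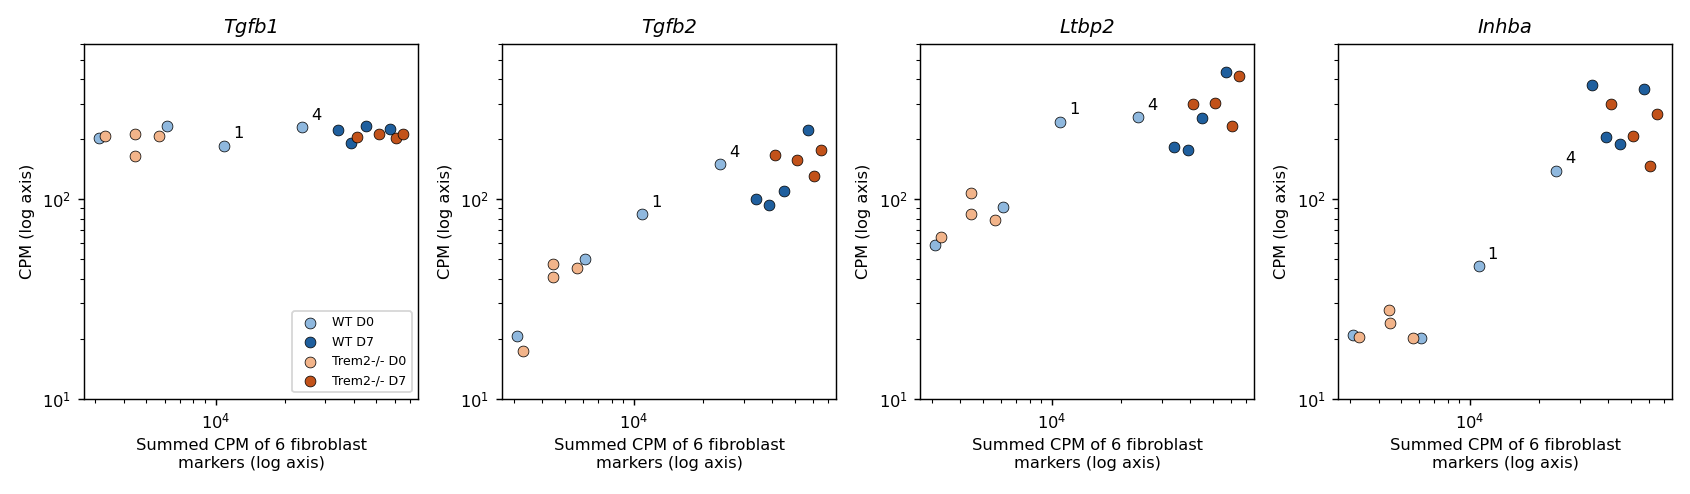
The level of Tgfb1, Tgfb2, Ltbp2 and Inhba in CPM is plotted against the summed CPM of 6 fibroblast markers for the 16 mice, on log axes, and WT D0 mice 1 and 4 are numbered. Mouse 4 (23752 CPM of markers) lies between the other uninjured and the injured mice on the x axis, and Tgfb1 stays between 165 and 234 CPM throughout.

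The genes most like each of the 8 over the 16 libraries, by Pearson's r of log2 levels, were named by rank. For Tgfb2 they were Tpbg (0.988), Olfml3 (0.981) and Clcf1 (0.976), and for Tgfb3 Lima1 (0.979), Parva (0.978) and Oat (0.976). Tgfbr1 was most like Mef2a (0.969) and Slc23a2 (0.967), followed by Kdm1a, and Tgfbr2 most like Axl (0.987), Aldh7a1 (0.985) and Sgce (0.985). Ltbp2 was most like Cand1 (0.971), Pam (0.966) and Clcf1 (0.965), so Clcf1 was shared with Tgfb2. Tgfbi was most like Ms4a7 (0.986), Copb2 (0.984) and Surf4 (0.982), and among the genes most like Inhba were Dhx32 (0.983) and Ube2ql1 (0.981). No gene followed Tgfb1 as closely on this measure, the nearest being Slc10a3 (0.844), Sf3b4 (0.821) and Lsm12 (0.813). After subtraction of the group means these 3 had r of 0.866, 0.836 and 0.848. The 3 named for Tgfbi then had 0.869, 0.793 and 0.831, and those for Tgfb2 0.982, 0.968 and 0.963. Among the 8, the closest pair was Tgfb2 and Ltbp2 (r = 0.963), and r with Tgfb1 was at most 0.323.

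Beyond these genes, 64 of 71 other pathway genes in 7 lists were in the table and 63 were tested. In WT mice 25 rose and 2 fell, with a median log2 fold change of 0.36, and in Trem2-/- mice 33 rose and 8 fell, with a median of 0.53, where 15.9% and 12.6% of all genes were called higher and lower in WT and 26.0% and 27.2% in Trem2-/- mice. The count called in WT mice was 40 without WT D0 mice 1 and 4 (median 0.68), where 44.2% of all genes were called, and 14 with only the WT groups in the fit, where 13.2% were called. The largest group of risers was the 16 target genes, with 13 higher in WT mice (median 1.94) and 13 higher and 1 lower in Trem2-/- mice (median 2.40). The fibrillar collagen genes Col1a1 and Col3a1 led, at 2.85 ± 0.57 (SE, adjusted p = 0.00333 with limma) and 2.85 ± 0.56 (SE, adjusted p = 0.00303) after WT injury, with 4.45 and 4.40 in the knockout. Both were 3.85 in WT mice without WT D0 mice 1 and 4. Klf10, an early TGF-beta response transcription factor, fell by 0.38 on the log2 scale in Trem2-/- mice (adjusted p = 0.000955 with limma). Acta2 and Tagln, contractile genes of myofibroblasts and smooth muscle, were not called in either genotype, with WT log2 fold changes of 0.04 and -0.36 and Trem2-/- log2 fold changes of -0.21 and -0.60. Col1a1 and Dcn are also among the fibroblast markers and Fmod among the tendon markers.

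Among 12 genes of the latent complex and its activation, 8 rose and 1 fell in WT mice, and 6 rose and 2 fell in Trem2-/- mice. The microfibril genes led. Fbn2, fibrillin 2, rose by 3.62 ± 0.65 (SE) in WT (adjusted p = 0.00173 with limma) and 5.18 ± 0.65 (SE) in Trem2-/- mice (adjusted p = 2.92e-05). Emilin1, whose product limits processing of the TGF-beta precursor, rose by 2.07 ± 0.32 (SE) and 2.77 ± 0.32 (SE), with adjusted p of 0.000841 and 1.91e-05 with limma. Leaving out WT D0 mice 1 and 4, the WT differences were 4.95 for Fbn2, 2.72 for Emilin1 and -1.18 for Nrros. Nrros, which anchors latent TGF-beta on myeloid cells, fell by 0.97 ± 0.18 (SE) in WT (adjusted p = 0.00187 with limma) and fell by 1.76 ± 0.18 (SE) in Trem2-/- mice (adjusted p = 1.16e-05). Thbs1, thrombospondin 1, an activator of latent TGF-beta, fell by 0.99 ± 0.33 (SE) in Trem2-/- mice (adjusted p = 0.0202 with limma). Its log2 fold change in WT mice was -0.58 (adjusted p = 0.185). The leukocyte and neutrophil markers moved down with Nrros, as given above. Macrophage markers moved the other way, with medians of 1.66 (WT) and 1.145 (Trem2-/-) after injury. The part of these markers in the fall of Nrros was not tested.

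Of 7 other receptors, 1 was called in WT and 3 in Trem2-/- mice. Acvr1, a type I receptor of the bone morphogenetic protein branch, rose by 1.13 ± 0.33 (SE) in WT (adjusted p = 0.0220 with limma) and by 1.62 ± 0.33 (SE) in Trem2-/- mice (adjusted p = 0.000954). Acvrl1, an endothelial type I receptor, and Acvr1b, a type I receptor of activin, fell by 0.74 and fell by 0.50 in Trem2-/- mice (adjusted p = 0.00375 and 0.00385 with limma). Leaving out WT D0 mice 1 and 4, Acvr1 was at 1.89 in WT mice. Of 6 antagonists and binders, 2 rose in WT and 3 in Trem2-/- mice. They were Bgn, the proteoglycan biglycan (2.40 and 3.05, adjusted p = 0.00174 and 5.61e-05 with limma), Fstl3, a relative of follistatin (0.92 and 0.68, adjusted p = 0.00588 and 0.0123), and in Trem2-/- mice Fmod, fibromodulin (2.27, adjusted p = 0.000522). In WT mice Bgn was at 3.36, Fstl3 at 1.23 and Fmod at 1.86, and Fmod passed (adjusted p = 0.00398 with limma), when those 2 libraries were left out.

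The 7 genes of SMAD proteins and cofactors had medians of 0.08 (WT) and -0.02 (Trem2-/-). In Trem2-/- mice Smad4 (0.30, adjusted p = 0.0225 with limma) and Smad2 (0.28, adjusted p = 0.00565) rose, while the coactivator gene Ep300 fell by 0.50 (adjusted p = 0.00191). Usp15, a deubiquitinase acting on the receptor and SMADs, fell by 0.41 in WT (adjusted p = 0.0260 with limma) and fell by 0.69 in Trem2-/- mice (adjusted p = 0.000362). Among 10 genes of intracellular feedback and repression, 1 rose in WT and 4 in Trem2-/- mice. Pmepa1, a TGF-beta-induced inhibitor, rose by 1.18 ± 0.30 (SE) and 1.66 ± 0.30 (SE) (adjusted p = 0.0112 and 0.000375 with limma), and Smurf1, a ubiquitin ligase, by 0.73 in Trem2-/- mice (adjusted p = 0.00449). Smad7, the inhibitory SMAD, had log2 fold changes of -0.09 and -0.21 and was not called. When WT D0 mice 1 and 4 were left out, the WT differences were -0.60 for Usp15, 1.85 for Pmepa1 and 0.06 for Smad7, and those of Smurf1 (0.77, adjusted p = 0.00143 with limma) and Inhbb (1.42, adjusted p = 0.00714) passed. Of 5 other ligand and subunit genes, 0 passed in WT mice with limma, where 2 had an unadjusted p under 0.05, and 4 rose in Trem2-/- mice. They included Inhbb, the other activin subunit (1.85, adjusted p = 0.000686 with limma), and Mstn, myostatin (1.69, adjusted p = 0.00973).

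**Figure D5:**
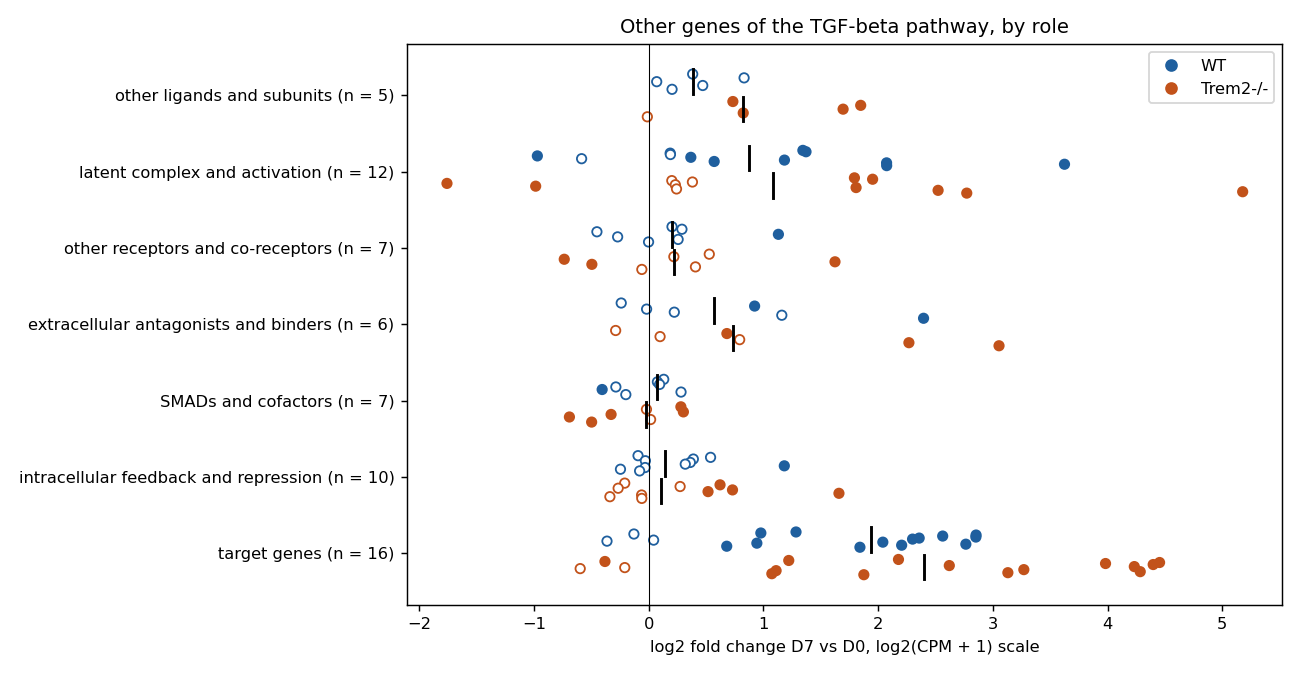
Each point is 1 tested gene of the wider pathway, placed by its log2 fold change at D7 over D0 in WT (blue) or Trem2-/- mice (orange) within 7 role lists, filled where the adjusted p was under 0.05, with a black bar at the median of the list. Target genes have the highest medians, 1.94 and 2.40, and SMADs and cofactors the lowest, 0.08 and -0.02.

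Between genotypes 0 of the 63 genes passed at D7, at D0 or for the interaction with limma, edgeR, or voom with limma, and 2, 4 and 4 had an unadjusted p under 0.05, against 7.27%, 2.92% and 8.16% of all genes. At D7 2 met the study's rule. Nrros was lower in Trem2-/- mice (log2 fold change -0.73 ± 0.18 (SE), adjusted p = 0.441 with limma), with 40.7 to 77.6 CPM in WT and 32.3 to 39.2 CPM in Trem2-/- mice, which did not overlap. Leukocyte and macrophage markers had medians of -0.64 and -0.45 in the same comparison, and their part in it was not tested. Inhbb was higher (0.90 ± 0.36 (SE), adjusted p = 0.615), with 18.9 to 43.4 and 41.9 to 95.5 CPM, which overlapped. At D0 Col1a1 (-1.27), Postn (-1.30), Fmod (-1.09) and Fstl3 (0.44) met that rule, each with an adjusted p of 0.99957 with limma. For the interaction Postn (1.93), Mstn (1.62) and Nrros (-0.79) met it, with adjusted p from 0.579 to 0.595. When WT D0 mice 1 and 4 were left out, the D0 differences were -0.28 for Col1a1, -0.21 for Postn, -0.39 for Fmod and 0.75 for Fstl3, and the interactions 0.84 for Postn, 1.19 for Mstn and -0.58 for Nrros, with none passing (limma).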

How the data were processed

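The 8 genes and the lists of pathway and marker genes were chosen with earlier results of these data known. The authors converted base calls with bcl2fastq, checked reads with FastQC and aligned them to mm10 (GRCm38) with STAR. Gene counts came from featureCounts, and the authors deposited signal values, namely edgeR TMM-normalized CPM. Versions, annotation, strand setting and the filter on low counts are not given in the sources used here. The table lists 13733 genes, with Fcgr1 listed 2 times and counted once. Whole reads were recovered for 100% of the deposited signal values within 0.05 reads. Sampling noise covers counting error only, and the closest replicate pair exceeded it (chi-square per degree of freedom 10.8).

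Values were compared on log2(CPM + 1), which understates changes of low genes, by linear models with trended empirical Bayes (limma 3.58.1, R 4.3.3). The 13173 genes tested reached 1 CPM in 4 or more of the 16 libraries. The 4 groups formed 1 factor, and p-values were adjusted by Benjamini-Hochberg over all genes tested. An adjusted p under 0.05 was called. Named pathway genes were, per list and direction, up to 2 with the largest injury change among genes passing with a mean of at least 5 CPM, those meeting the study's rule between genotypes, and for each of the 8 genes the 3 with the highest r, of which 1 is not reported here. Acta2, Tagln, Fst and Smad7 were named after their values were seen. Gene models are from GENCODE M21, promoters from RefSeq (GRCm38.p6). Tests were checked on simulated counts with the same spread setting for every gene. The spread in some groups here was far wider, so that check does not show how the tests perform on these data. Nothing in the labels states separate litters or cultures, so p-values measure the spread between these samples. Alternatives were other pseudocounts, filters, normalizations and fits, a replicate block, edgeR 4.0.16 and voom on recovered reads, a fold of 1.5 and each library left out. Plain CPM and leaving out WT D0 libraries 1 and 4 were added after the data were seen.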

Additional observations from a re-analysis of the deposited data

Results flagged for a closer look

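Of 32 groups of 4 values (8 genes in 4 groups), 2 held a mouse whose gap to its nearest neighbour as a share of the range exceeded the 95% limit of Dixon's test, where chance flags about 1 in 20 groups. Tgfb1 in Trem2-/- D0 mouse 2 was 165 CPM against 206 to 211 CPM in the other mice (gap over range 0.889). Tgfb2 in WT D7 mouse 4 was 222 CPM against 93.5 to 109 CPM (gap over range 0.877). Ltbp2 was also highest in WT D7 mouse 4, at 436 CPM, as was the summed level of the fibroblast markers in that group, at 57234 CPM. The part of the marker level in that value was not tested. Without WT D7 mouse 4 the Tgfb2 injury difference in WT mice was 0.73 on the log2 scale and was not called.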

How the results depend on the processing

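Of 29 alternatives per comparison (28 for the interaction), none gave a call for the 8 genes between genotypes or for the interaction. At most 0.0380% of all genes were called there. The count in Trem2-/- mice stayed at 6 or 7, where 46.6% to 61.3% of all genes were called. In WT mice the count ranged from 2 to 6 without 1 library, where the share of all genes ranged from 15.0% to 36.4%. It was 7 without WT D0 libraries 1 and 4 (44.2% of all genes). Under the study's rule the WT count was 2 on plain CPM (52.3% of all genes) and 7 without those libraries (50.2%). It was 3 to 7 without 1 library (30.5% to 43.8%). Between genotypes at D0 the count by this rule was 3 with edgeR (3.54%) and 0 to 3 without 1 library. It was 3 without WT D0 mouse 2, where 9.34% of all genes met the rule. For the interaction it was 0 to 3 (3 without WT D0 mouse 2, with 17.0% of all genes). The cause was not tested.

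The injury difference of Tgfb1 turned negative in WT mice with quantile normalization (-0.0361), on plain CPM (-0.25) and without WT D0 libraries 1 and 4 (-0.0116), and in Trem2-/- mice on plain CPM (-0.21). Leaving out 1 library gave -0.0364 to 0.0884 in WT mice and -0.0268 to 0.12 for the interaction. Without WT D0 libraries 1 and 4, the D0 genotype differences were 0.12 for Tgfb2, 0.39 for Tgfb3, 0.12 for Tgfbr1, 0.16 for Tgfbr2, 0.16 for Ltbp2, 0.0237 for Tgfbi and 0.15 for Inhba. The interactions were then -0.16 for Tgfb3, -0.16 for Tgfbr1, -0.0616 for Tgfbr2 and -0.42 for Inhba. Leaving out 1 library gave D0 genotype differences of -0.51 to 0.0394 for Tgfb3, -0.22 to 0.0705 for Tgfbi and -0.31 to 0.0324 for Tgfbr2, a D7 difference of -0.14 to 0.0680 for Tgfbr1 and an interaction of -0.0388 to 0.87 for Inhba.

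With the longest transcript as length, which changes the scale by construction, the Tgfb1 share was 61.5% at WT D7, 76.6% at Trem2-/- D0 and 56.1% at Trem2-/- D7. The Tgfb3 share was 16.0%, 20.3%, 16.2% and 22.6% in the WT groups (D0, D7) and then the knockout groups (D0, D7), and the Tgfb2 share 21.3% at Trem2-/- D7. The log2 ratio of Tgfbr1 to Tgfbr2 was -0.11 at Trem2-/- D0 and -0.43 at Trem2-/- D7, and that of Inhba to Fst 2.91 at WT D7, -1.07 at Trem2-/- D0 and 2.52 at Trem2-/- D7.

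Same-numbered libraries share only a number: 11 of 24 pairs correlated above 0.1 (range -0.51 to 0.41), and 7 of 16 libraries were closest to one of their own number. With a replicate block 3 of the 8 genes were called in WT mice and 7 in Trem2-/- mice. Of the 13173 genes tested, 3561 and 6773 were then called. Between genotypes and for the interaction 0 of the 8 were called, and 0 of all genes tested. In WT mice 6 of the 8 met the study's rule, which 4891 of all genes tested met. With 4 mice a group, the intervals give the precision.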
